A study of Bos taurus with 6 samples.

Results

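The genes described are those of the proteasome, taken as every probe whose gene symbol in the array's annotation begins with PSMA, PSMB, PSMC, PSMD, PSME, PSMF or PSMG followed by a digit, without the immunoproteasome subunits PSMB8, PSMB9 and PSMB10. The rule found 75 probes for 44 genes, of 43794 probes and 15216 named genes on the array. After the filter on dim probes 71 of these probes and 43 genes could be measured, of 27210 probes and 11190 named genes in all. The 43 genes were 14 subunits of the core particle (PSMA1 to PSMA7 and PSMB1 to PSMB7) and 16 subunits of the regulatory particle. The others were 3 chaperones of regulatory particle assembly, 4 chaperones of core assembly, 4 alternative regulators of the core, the thymus-specific core subunit PSMB11, and PSMC3IP. PSMC3IP shares the prefix only: its product is a cofactor of meiotic recombination and no proteasome subunit. PSMA8, the testis form of an alpha subunit, had a single probe, and it did not pass the filter, nor did a dim second probe each of PSMC4, PSMD1 and PSMD4. PSMD13 and PSME3 carried no probe under those symbols and were not analysed here.

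The proteasome is the main machine for breaking down ubiquitin-tagged proteins in the cytoplasm and nucleus. Its core particle is a barrel of stacked rings, with alpha subunits forming the gate at each end and beta subunits holding the proteolytic sites inside. The regulatory particle caps the barrel, where its non-ATPase subunits bind ubiquitin chains and remove them and its ring of ATPases unfolds the substrate and threads it into the core.

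The cells were primary granulosa cells, the somatic cells that surround the oocyte and make estradiol, from Holstein cattle follicles of 2 to 6 mm. Both groups were grown without serum in medium with FSH at 10 ng/ml and insulin at 10 ng/ml for 5 days. The treated cells then received fibroblast growth factor 8 (FGF8) at 10 ng/ml for 2 h, and the control cells were untreated and are labelled 0 h, so that FGF8 and the added 2 h in culture cannot be told apart. There were 3 biological replicates, each with treated and control RNA on the same 2-colour array and repeated with the dyes swapped, which makes 6 arrays; the labels do not say how many animals gave each replicate, and the RNA was amplified before labelling. Every value below is the log2 ratio of treated over control; the ratio of a replicate is the mean of its 2 arrays, and a mean is given with the SD over 3 replicates.

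The median raw foreground signal was 108 to 192 in Cy3 and 110 to 163 in Cy5 over the 6 arrays, against 73 to 140 and 81 to 128 in the negative control spots. The proteasome probes were well above this, with array medians of 1021 to 1335 in Cy3 and 977 to 1450 in Cy5. None was saturated, and 60 of the 71 probes were above background in both RNAs on all 6 arrays, against 16438 of all 27210. Of 15 granulosa markers 13 passed the filter, among them FSHR, CYP19A1, INHA and AMH, while FOXL2 and HSD17B1 did not. Of 13 theca and stroma markers 10 passed as well (COL1A1, COL3A1 and DCN among them, but not CYP17A1, LHCGR or TAGLN). Of 8 endothelial markers 6 passed (not PECAM1 or TIE1), as did 7 of 12 leukocyte and blood markers (not CD4, ITGAM, CSF1R, CD79A or HBB). Of all named genes 11190 of 15216 passed, so passing alone does not show which cells were present. Above background in both RNAs on all 6 arrays were 13 of 13 measured granulosa, 8 of 10 theca and stroma, 2 of 6 endothelial and 4 of 7 leukocyte and blood markers. Of all 11190 measured named genes 7895 were, so these counts do not show which cells were present either. Were cells of several types present, a lower level could come from fewer cells of a type or from less RNA per cell. The arrays cannot tell these apart.

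No proteasome gene passed the test for a response to FGF8. In limma's moderated test with Benjamini-Hochberg adjustment, 0 of 71 probes were called at an adjusted p under 0.05, and the smallest adjusted p of a member was 0.856; over the whole array 1 of 27210 probes (0.00368%) was called, and it has no gene name. At an unadjusted p under 0.05 there were 3 of 71 member probes (4.23%), against 4.94% of all probes. The higher ones were the brightest probe of PSMA7 and the third probe of PSMG1 (2.82% of all probes were higher), and the lower one was the third probe of PSMB4 (2.13% of all). Taking the brightest measured probe of each gene, 1 of 43 members (2.33%), PSMA7, passed the unadjusted threshold, against 5.52% of all named genes (3.1% higher and 2.42% lower). The median of the 43 means was 0.03, beside 0.0052 over all named genes, and 25 lay above 0 and 18 below (58.1% above, against 51% of all genes). With each array only centred on its median the median was 0.19 for the members and 0.05 for all genes, and the members above 0 came to 69.8%, against 59.4% of all genes. Single genes ranged from -0.56 for PSME2 to 0.53 for PSMA7, a span of a 1.47-fold lower to a 1.45-fold higher level.

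**Figure D1:**
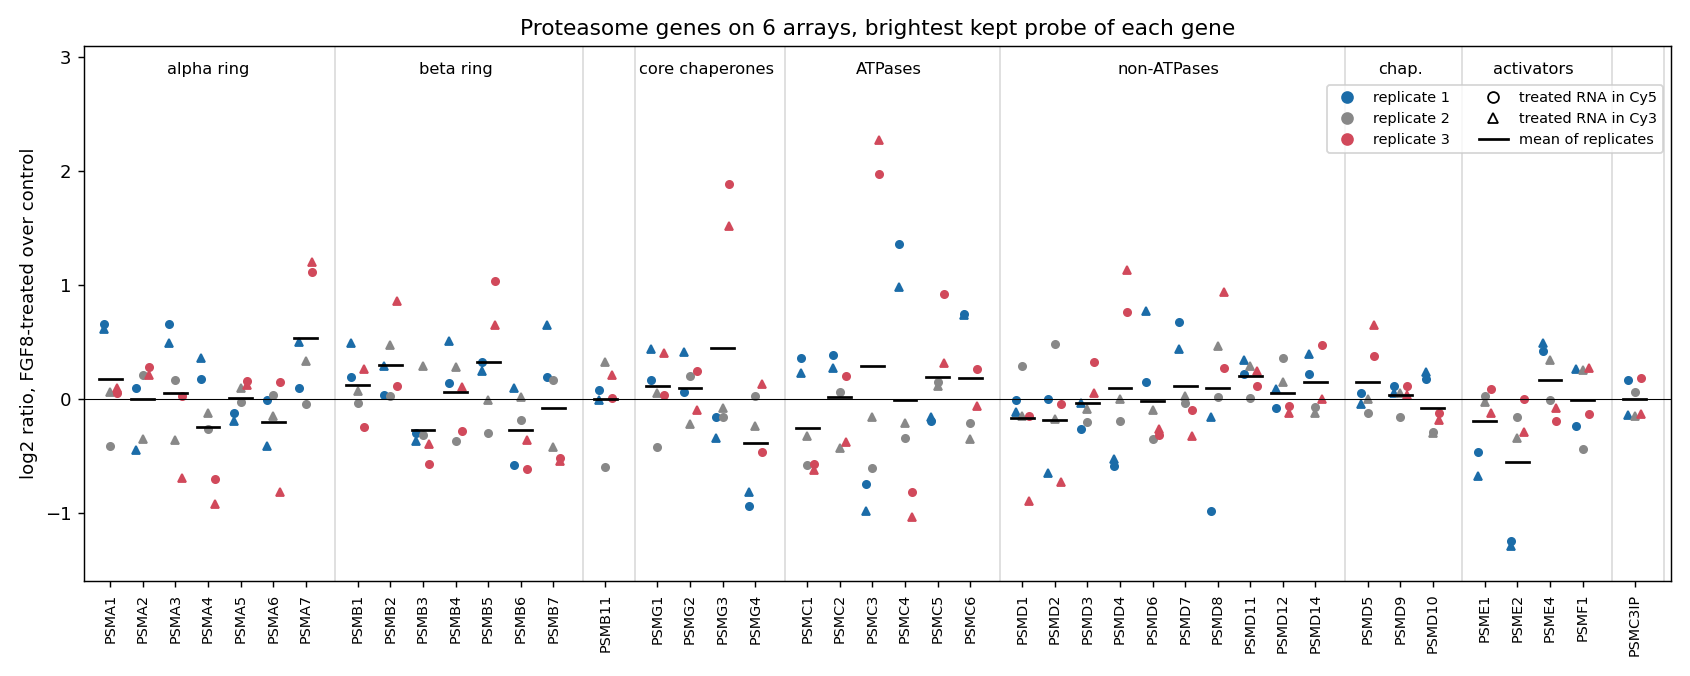
Log2 ratio of FGF8-treated over control RNA (vertical axis) for the 43 measured proteasome genes, grouped by role, on each of 6 arrays; colours are replicates, circles and triangles are the dye orientations, and bars are means of the replicates. The means of PSMA7 and PSME2 alone lie beyond 0.5, and PSMC3, PSMC4, PSMD4 and PSMG3 have replicates far apart.

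Among the 7 alpha subunits, which form the outer rings and the gate of the core, PSMA7 had the highest mean of all members. Its brightest probe read 0.09 and 0.50 in replicate 1 (treated RNA in Cy5, then in Cy3), -0.05 and 0.33 in replicate 2, and 1.12 and 1.20 in replicate 3. It was thus above 0 on 5 of 6 arrays and more than 1 log2 unit higher only in replicate 3. The mean was 0.53 ± 0.55, with a 95% interval of 0.02 to 1.05 that is not adjusted for the number of probes (unadjusted p = 0.045, adjusted p = 0.856, limma), and without replicate 3 it was 0.22. A second, dimmer PSMA7 probe gave 0.62, 0.15 and 0.28 in replicates 1 to 3, but it was above background on 5 arrays in treated and 3 in control RNA and so passed the filter only through the RNA in which it is higher. On the array of replicate 1 with Cy3 on the treated RNA its ratio of 0.85 became 0.06 with normexp background correction, so it is no second support for PSMA7. PSMA1 read 0.66 and 0.62 on the arrays of replicate 1, but -0.41 and 0.06 in replicate 2 and 0.05 and 0.09 in replicate 3. PSMA4 was at 0.27 in replicate 1, at -0.20 in replicate 2 and at -0.81 in replicate 3, where both arrays were low (-0.70 and -0.92). PSMA6 had negative replicate ratios throughout, -0.21, -0.06 and -0.33, for a mean of -0.20 ± 0.14, although its second probe gave 0.05 ± 0.17. PSMA3 and PSMA5 had means of 0.05 and 0.0061, and that of PSMA2 was nearer to 0 still. The alpha ring as a list had medians of 0.27, -0.07 and 0.07 in the 3 replicates.

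The 3 catalytic beta subunits did not share a direction. PSMB5, which carries the chymotrypsin-like site, read 0.33 and 0.24 in replicate 1, -0.30 and -0.01 in replicate 2, and 1.04 and 0.64 in replicate 3. Its mean was 0.32 ± 0.50, with an interval of -0.16 to 0.81. PSMB6, which carries the caspase-like site, read -0.58 and 0.09 in replicate 1, -0.19 and 0.01 in replicate 2, and -0.61 and -0.36 in replicate 3. Its replicate ratios were all below 0, and its mean was -0.27 ± 0.20 with an interval of -0.61 to 0.07 (unadjusted p = 0.097, adjusted p = 0.856, limma). PSMB7, which carries the trypsin-like site, read 0.19 and 0.65 in replicate 1, 0.17 and -0.42 in replicate 2, and -0.52 and -0.55 in replicate 3, so that replicates 1 and 3 were on opposite sides of 0. Its mean was -0.08 ± 0.48, and all 3 of its measured probes gave means between -0.15 and -0.08.

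Of the other beta subunits, which form the inner rings without a proteolytic site of their own, PSMB2 was above 0 on every array. The values were 0.03 and 0.29 in replicate 1, 0.02 and 0.47 in replicate 2, and 0.11 and 0.86 in replicate 3. In each replicate the array with treated RNA in Cy3 gave the higher ratio, and the lowest value was close to 0. The mean was 0.30 ± 0.17, a 1.23-fold higher level with an interval of -0.03 to 0.62 (unadjusted p = 0.067, adjusted p = 0.856, limma). PSMB3 was below 0 on 5 of 6 arrays, with replicate ratios of -0.33, -0.01 and -0.48 and a mean of -0.28 ± 0.24. PSMB1 and PSMB4 had means of 0.12 ± 0.19 and 0.06 ± 0.23 at their brightest probes. The medians of the beta ring were 0.28, -0.05 and -0.09.

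The 6 ATPases of the regulatory particle included PSMC3, the member whose replicates differed most by SD, and PSMC4, the third after the chaperone PSMG3. The brightest PSMC3 probe read -0.75 and -0.99 in replicate 1, -0.61 and -0.16 in replicate 2, and 1.97 and 2.27 in replicate 3. Both arrays of replicates 1 and 2 were below 0 while both of replicate 3 were far above, a 4.35-fold higher level in treated RNA there against a 1.82-fold lower one in replicate 1. The mean of 0.29 ± 1.60 had an interval of -0.98 to 1.56, and 0.384% of all genes had an SD as large. Without replicate 3 the mean was -0.63. The other measured PSMC3 probe, above background in both RNAs on all 6 arrays, gave -0.33 in replicate 3, so the rise there was not seen at both probes. PSMC4 ran the other way, with 1.36 and 0.98 in replicate 1, -0.34 and -0.21 in replicate 2, and -0.81 and -1.04 in replicate 3. It was 2.25-fold higher in replicate 1 and 1.90-fold lower in replicate 3, and its mean was -0.01 ± 1.07.

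The replicates of the other ATPases lay closer together. PSMC6 read 0.75 and 0.74 in replicate 1, -0.21 and -0.35 in replicate 2, and 0.26 and -0.06 in replicate 3. Only the first replicate stood apart from 0 on both arrays by more than 0.5, and the mean was 0.19 ± 0.52. PSMC1 read 0.36 and 0.23 in replicate 1, -0.58 and -0.33 in replicate 2, and -0.57 and -0.63 in replicate 3, a mean of -0.25 ± 0.48. PSMC5 had replicate ratios of -0.18, 0.13 and 0.62 (mean 0.19 ± 0.40), and PSMC2 had 0.33, -0.18 and -0.09 (mean 0.02 ± 0.27). The list's medians were 0.31, -0.28 and 0.0035, with 4 of 6 genes above 0 in replicate 1, 1 of 6 in replicate 2 and 3 of 6 in replicate 3.

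The 10 measured non-ATPase subunits were centred close to 0 in every replicate, with medians of -0.03, 0.03 and 0.04. PSMD4, a ubiquitin receptor, read -0.59 and -0.53 in replicate 1, -0.19 and -0.0047 in replicate 2, and 0.77 and 1.13 in replicate 3. Its replicates 1 and 3 lay on opposite sides of 0, and the mean was 0.10 ± 0.77. PSMD14, the subunit that cuts ubiquitin chains off the substrate, had replicate ratios of 0.31, -0.10 and 0.24 and a mean of 0.15 ± 0.22, with an interval of -0.20 to 0.49. The scaffold subunits PSMD1 and PSMD2 had means of -0.17 ± 0.31 and -0.19 ± 0.30. Replicate 3 of PSMD1 was -0.15 on the array with treated RNA in Cy5 and -0.89 on its dye swap.

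PSMD11, a subunit of the lid that braces the regulatory particle against the core, was above 0 on all 6 arrays. The values were 0.22 and 0.34 in replicate 1, 0.0031 and 0.29 in replicate 2, and 0.12 and 0.25 in replicate 3. Its spread was small, 0.20 ± 0.07, but one array lay almost at 0. The second PSMD11 probe gave 0.19 ± 0.05 but was above background on 4 arrays in treated and 1 in control RNA, so it passed the filter only through the RNA in which it is higher and adds no support. The level was 1.15-fold higher, with an interval of -0.10 to 0.51 on the log2 scale (unadjusted p = 0.158, adjusted p = 0.856, limma). The non-ATPases PSMD3, PSMD6, PSMD7, PSMD8 and PSMD12 had means between -0.04 and 0.11. Of all member genes, 2 (PSMB2 and PSMD11, 4.65%) were above 0 on all 6 arrays and 1 (PSME2, 2.33%) was below 0 on all 6, against 3.49% and 2.5% of all named genes. Counted by probe, 4 were above 0 on every array (the probes of PSMB2 and PSMD11 and dimmer probes of PSMG1 and PSMF1), against 3.34% of all probes. That PSMF1 probe was above background on 5 arrays in treated RNA and on 1 in control RNA, so it passed the filter only through the RNA in which it is higher and its sign supports nothing.

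The chaperones that build the core particle did not share a direction. PSMG3 and PSMG4, which act as a pair in the assembly of the alpha ring, had means of opposite sign. PSMG3 read -0.16 and -0.34 in replicate 1, -0.16 and -0.08 in replicate 2, and 1.89 and 1.51 in replicate 3. It was below 0 on 4 arrays and 3.26-fold higher in treated RNA in replicate 3 alone. The mean of 0.45 ± 1.09 became -0.18 without that replicate. The only PSMG3 probe was dim, above background on 5 arrays in treated RNA and on 6 in control RNA. PSMG4 read -0.94 and -0.82 in replicate 1, 0.03 and -0.24 in replicate 2, and -0.46 and 0.13 in replicate 3. It was 1.84-fold lower in replicate 1, and its mean was -0.39 ± 0.43 (unadjusted p = 0.080, adjusted p = 0.856, limma). The other pair, PSMG1 and PSMG2, had means of 0.11 ± 0.26 and 0.10 ± 0.13 at their brightest probes. The third brightest PSMG1 probe was above 0 on all 6 arrays, with replicate ratios of 0.41, 0.39 and 0.37 and an unadjusted p of 0.019 in limma, whereas the other PSMG1 probes had means of 0.11, 0.09 and 0.0063. The chaperones of regulatory particle assembly, PSMD5, PSMD9 and PSMD10, had means of 0.15, 0.03 and -0.08.

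Among the alternative regulators PSME2 had the lowest mean of all members. PSME2 and PSME1 are the 2 subunits of a ring that opens the core in place of the regulatory particle, and both genes are known to be induced by interferon gamma; in the RefSeq gene order of the ARS-UCD2.0 assembly 1 gene lies between them. PSME2 read -1.25 and -1.29 in replicate 1, -0.16 and -0.35 in replicate 2, and -0.0052 and -0.29 in replicate 3. All 6 arrays were below 0, the arrays of replicate 1 by more than 1 log2 unit and one array of replicate 3 by almost nothing. The mean was -0.56 ± 0.62, a 1.47-fold lower level with an interval of -1.12 to 0.0041 (unadjusted p = 0.051, adjusted p = 0.856, limma), and without replicate 1 it was -0.20.

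PSME1 showed the same split between replicates, with -0.47 and -0.68 in replicate 1, 0.02 and -0.02 in replicate 2, and 0.09 and -0.12 in replicate 3. Its mean was -0.20 ± 0.32. The 4 arrays of replicates 2 and 3 stayed between -0.12 and 0.09. PSME4, a large single-chain activator, had 0.46, 0.16 and -0.13 (mean 0.16 ± 0.30), and PSMF1, an inhibitor of the core, had a mean of -0.0063 ± 0.08. PSMB11 read close to background, in 5 arrays above it in treated RNA and in 4 in control RNA, with a mean of 0.0022 ± 0.13. PSMC3IP, which is no subunit, had 0.01, -0.05 and 0.03, the smallest SD of the 43 genes at 0.04.

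The core and regulatory particles did not differ beyond the spread between replicates. Replicates 1, 2 and 3 had medians over the 14 core genes of 0.28, -0.07 and -0.04, for a mean of 0.06 ± 0.19. The median over the 16 regulatory genes was 0.14, -0.10 and 0.0035, for a mean of 0.01 ± 0.12. The difference, core minus regulatory, was 0.14, 0.03 and -0.04, or 0.04 ± 0.09, smaller than its own SD and without one sign. With each array only centred on its median it was 0.12, with the core at 0.22 and the regulatory particle at 0.10. Split by dye, treated RNA labelled with Cy5 gave 0.05, 0.01 and -0.12 for this difference, and treated RNA labelled with Cy3 gave 0.17, 0.15 and 0.19. If the mean over replicates is taken for each gene first, the order turns: the medians were then 0.03 for the core and 0.07 for the regulatory particle. Replicates 2 and 3 share a slide as far as the array names tell, and over them the difference was -0.0055. The granulosa marker list had medians of 0.40, -0.10 and -0.15 in the same replicates and the leukocyte list -0.25, 0.05 and -0.17; their part in these values was not tested.

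**Figure D2:**
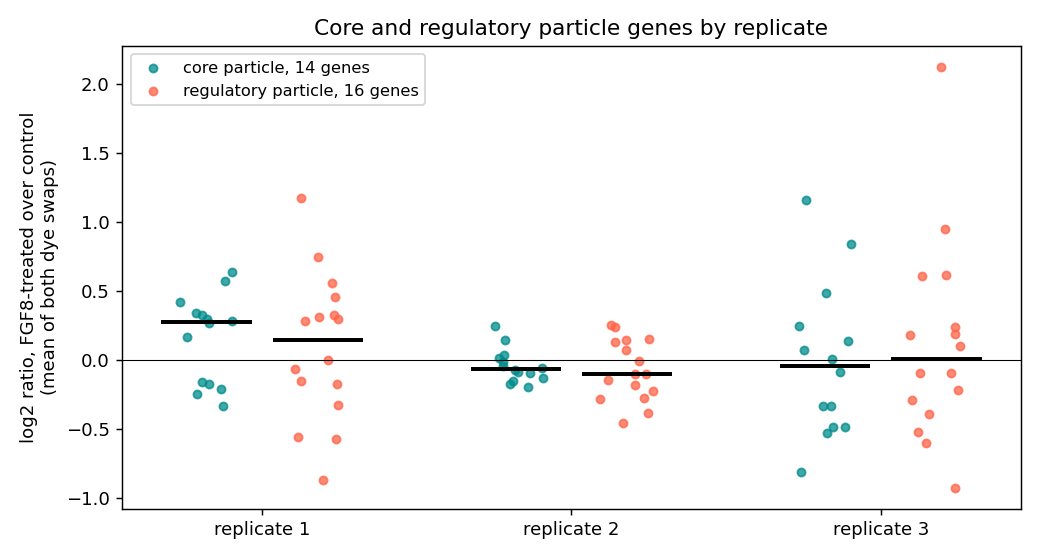
Log2 ratio of treated over control RNA (vertical axis, mean of both dye swaps) for the 14 core and 16 regulatory particle genes in each replicate, with bars at the medians. The medians stay between -0.10 and 0.28, and single genes spread least in replicate 2.

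The 43 members had medians of 0.08, -0.09 and 0.03, beside -0.01, -0.0011 and 0.02 over all named genes. In replicate 2, 12 of 43 members (27.9%) were above 0, against 49.7% of all genes, whereas replicate 1 had 27 (62.8%, against 48.8%) and replicate 3 had 23 (53.5%, against 52.2%). The SD over the 43 members in the 3 replicates came to 0.47, 0.16 and 0.60, beside 0.41, 0.23 and 0.48 over all named genes, and both were narrowest in replicate 2.

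The dye-swapped arrays of a replicate gave like values for the members in replicates 1 and 3 but not in replicate 2. Over the 43 genes, which share these arrays, Pearson's r between the 2 arrays was 0.80 in replicate 1 and 0.81 in replicate 3, with 36 and 32 genes of the same sign. In replicate 2 it was -0.14 with 18 of the same sign. The same coefficients over all named genes were 0.58, 0.53 and -0.05. Between replicates the members did not line up: r was -0.10 between replicates 1 and 2, -0.34 between 1 and 3 and 0.07 between 2 and 3, against -0.03, -0.05 and 0.12 over all genes. Genes are not independent replicates, and these coefficients describe the arrays only.

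**Figure D3:**
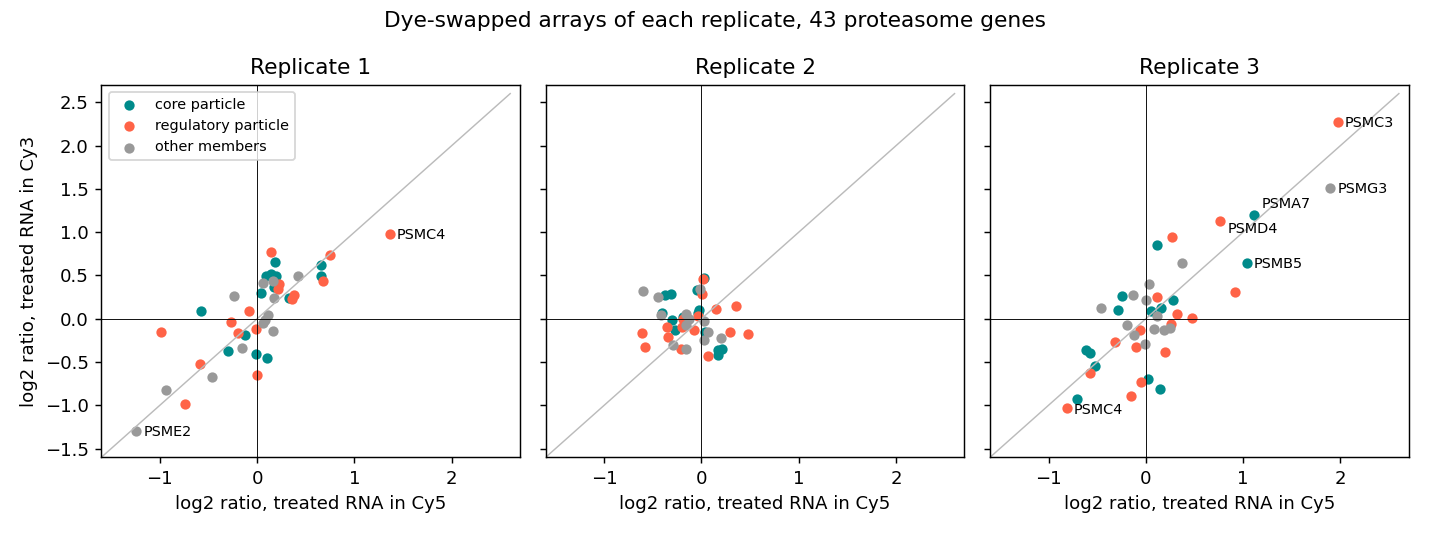
Each member's log2 ratio of treated over control with treated RNA in Cy5 (horizontal axis) against that with treated RNA in Cy3 (vertical axis), one panel per replicate, with the line of equal values; genes beyond 1 on either array are named. Points follow the line in replicates 1 and 3 (r 0.80 and 0.81) and not in replicate 2 (r -0.14).

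The members with ratios beyond 0.5 in the same direction on both arrays of a replicate were counted in each replicate. Replicate 1 had 3 above (PSMA1, PSMC4 and PSMC6; 4.45% of all named genes were) and 4 below (PSME2, PSMC3, PSMD4 and PSMG4; 6% of all). Replicate 2 had none, where 0.84% of all genes were above and 0.286% below. Replicate 3 had 5 above (PSMA7, PSMC3, PSMD4, PSMB5 and PSMG3; 8.03% of all) and 4 below (PSMB7, PSMC4, PSMC1 and PSMA4; 4.43% of all). PSMC3, PSMC4 and PSMD4 were in both sets, each with its direction turned. Of the 43 members 4 (9.30%) were among the 5% of named genes with the largest SD over replicates, and 6 (14%) among the top 10%. The median SD was 0.30 for the members and 0.25 for all named genes.

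Several genes had more than 1 measured probe, which gives a second reading within the same RNA. Of 16 such member genes, 8 (50%) had probe means of opposite sign, and so had 52.3% of all named genes with several probes. PSMF1 is among the 8 only through a probe that passed the filter in treated RNA alone. Such probes were not removed from either share. PSMC3 had the widest gap: its brighter probe gave -0.87, -0.38 and 2.12 and its dimmer probe -0.81, -0.04 and -0.33. The probes matched in replicate 1 and lay on opposite sides of 0 in replicate 3. The means of PSMB4 probes ran from -0.33 to 0.06, those of PSME4 from -0.06 to 0.22, and those of PSMA6 from -0.20 to 0.05. Those of PSMF1 ran from -0.08 to 0.30, but the high end was the probe that passed the filter only through treated RNA, and the other PSMF1 probes had means of -0.08 to -0.0063. The 6 probes of PSMA2 stayed between -0.14 and 0.03. Without the probes' places in the transcripts it was not tested whether the probes of a gene read different transcripts.

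**Figure D4:**
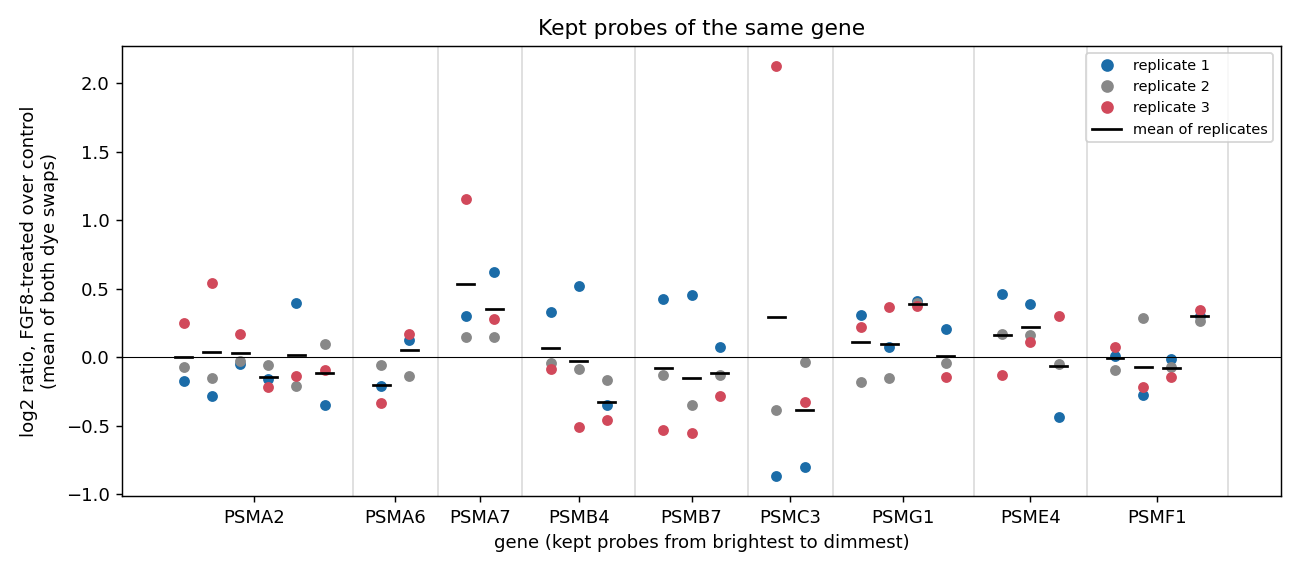
Log2 ratio of treated over control (vertical axis, mean of both dye swaps) for each measured probe of the 9 member genes shown, ordered from the brightest to the dimmest probe within a gene; points are replicates and bars are means. The 2 probes of PSMC3 agree in replicate 1 and differ in replicate 3.

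Unlike the treatment, the dye of the label gave calls among the members. The dye effect was measured as log2 of Cy5 over Cy3 after averaging the orientations, and was called for 5 of 71 member probes (7.04%) against 8.24% of all probes. Of these 3 were brighter in Cy5 (probes of PSMB4, PSMB7 and PSMD2) and 2 in Cy3 (probes of PSMG4 and PSMD8). PSMD2 shows its size: the array values were -0.0035, 0.48 and -0.04 with treated RNA in Cy5 and -0.65, -0.18 and -0.73 with treated RNA in Cy3. PSMD8 had the opposite order, -0.99, 0.01 and 0.27 against -0.16, 0.46 and 0.94.

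Among the genes that work with the proteasome no call was made either. Of 13 partners listed (assembly factors, ubiquitin receptors and regulators that carry no PSM symbol) 12 were measured, with 0 called and 0 at an unadjusted p under 0.05 in limma, and their median of means was 0.03. Of 30 genes of the ubiquitin pathway 24 were measured and 0 called. Only UBA6, a ubiquitin-activating enzyme, was at an unadjusted p under 0.05 and below 0 on all 6 arrays; its replicate ratios were -0.39, -0.18 and -0.41 (mean -0.33 ± 0.13). That is 1 of 24, where 2.42% of all named genes were lower at that p and 2.5% were below 0 on all 6 arrays, and the means of the 3 UBA6 probes ran from -0.33 to -0.0011. The median over the measured pathway genes was 0.07. Some genes, named here after their values were seen, were below 0 in replicate 1 and high in replicate 3, as the brightest PSMC3 probe was. VCP, the segregase that extracts ubiquitin-tagged proteins, had -0.48, -0.13 and 2.53 at its brightest probe (mean 0.64, against -0.08 at its other probe). USP5, which disassembles free ubiquitin chains, had -0.62, 0.10 and 1.57. ADRM1, a ubiquitin receptor of the regulatory particle, had -0.46, 0.13 and 1.00. The share of all named genes with this pattern was not counted, and 8.03% of them were above 0.5 on both arrays of replicate 3. SEM1, a small lid subunit listed under an older symbol, had 0.72, -0.27 and -0.53. NFE2L1, a transcription factor known to drive proteasome genes when the proteasome is impaired, had 0.19, -0.21 and -0.22. The immunoproteasome subunits PSMB9 and PSMB10 had -1.34, -0.03 and 2.09, and -1.70, -0.13 and 2.94, a wider span than any of the 43 members, and PSMB8 had -1.20, 0.15 and 0.12.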

How the data were processed

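The authors deposited, per the file headers, the scanner intensity of every spot in both channels and a table of log2 ratios for the 6 arrays. These deposited log2 ratios equalled the median foreground minus background after loess, with treated over control on all arrays (r = 1.00, slope 1.00), and their array medians were 0.0025, 0.0030, 0.0018, -0.00085, 0.0063 and 0.0067. They were the main values; intensities with normexp (offset 50) and loess or median centring were alternatives. A probe was kept if no array flagged it (143 were) and its foreground passed the 95th percentile of 153 negative control spots in treated or control RNA on at least 4 of 6 arrays. Of 43794 probes 21790 had 1 gene name. The symbol was updated through RefSeq for 1524 of these probes and found no match for 241. A gene's value is that of its brightest kept probe. For coordinates the array's build, not given in the sources used here, would be needed, so none are printed.

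The arrays of a replicate were averaged and the 3 values tested against 0 with limma 3.58.1 (R 4.3.3), two-sided, adjusted over 27210 probes at a threshold of 0.05. The p-values set the mean against the spread between these replicates, which limma draws toward that of all kept probes. For members with a small SD the intervals are therefore wider than their own spread would give. Treated and control RNA of the same number share an array, and their deviations correlated at 0.75, 0.60 and 0.60 (within-array ratios pair them). The fit was tested on simulated data. Alternatives were the scaling, the filter, each replicate left out, each dye orientation alone, the mean over a gene's probes, and 6 arrays with or without a replicate or slide block. The members and lists were chosen with earlier results of these data known. Genes named were the catalytic subunits, the ATPases, PSMD1, PSMD2, PSMD4 and PSMD14, the 5 highest and 5 lowest, those with 1 sign on 6 arrays or an unadjusted p under 0.05, the widest probe disagreements and PSMC3IP; other members illustrate ranges. Figures used Python 3.11.15 and matplotlib 3.10.9.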

Additional observations from a re-analysis of the deposited data

Results flagged for a closer look

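Of 71 proteasome probes 5 (7.04%) differed between the dye orientations in limma's test of the dye difference over 3 replicates, against 8.24% of all probes. The difference is in log2 of Cy5 over Cy3, whatever the dye of the treated RNA. The PSMG4 probe EMBV3_33133 was at -0.52 (adjusted p = 0.0024), so that its treated over control ratio averaged -0.59 where Cy5 marked the treated RNA and 0.44 where Cy3 did. The PSMB4 probe EMBV3_30874 was at 0.39 (adjusted p = 0.015), with ratios of 0.06 and -0.72, and it is also the PSMB4 probe with an unadjusted p under 0.05 for FGF8. The PSMB7 probe EMBV3_01320 was at 0.42 (adjusted p = 0.014) and the only PSMD8 probe, EMBV3_25304, at -0.32 (adjusted p = 0.043). The brightest PSMD2 probe, EMBV3_05005, was at 0.33 (adjusted p = 0.035), and its ratios averaged 0.14 and -0.52. Each of the 5 had the same sign of the dye difference in all 3 replicates, and the mean ratio of each of these 5 probes had opposite signs in the 2 orientations. Both follow largely from choosing the probes by this difference and are no separate support for it. At the brightest probes of PSMG4 and PSMB7, which are other probes, both orientations were below 0 on average (-0.46 and -0.31 for PSMG4, -0.05 and -0.11 for PSMB7). The brightest PSMB4 probe, also another one, averaged -0.17 and 0.30 in the 2 orientations. Its dye difference was -0.23, opposite in sign to that of the called PSMB4 probe, and was not called.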

How the results depend on the processing

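No member probe was called at an adjusted p under 0.05 under any of the alternatives run, and the lowest adjusted p of a named gene was 0.331. Over all probes, where 1 was called, the count was 0 with normexp and either loess or median centring, 0 to 1 with a replicate left out, 10 with treated RNA in Cy5 only, 15 over 6 arrays with the replicate block, 19 with no replicate block and 16 with the slide as a block; arrays of 1 replicate are not independent in these fits, and the replicate block changed no call of a member. Member probes at an unadjusted p under 0.05, 3 at first, were 7 with no filter on dim probes, 1 with the stricter filter, 3 to 5 with a replicate left out, 9 with treated RNA in Cy3 only, and 7 in each fit over 6 arrays, replicate block included. The share of all probes at that p is given for the main fit only (4.94%, against 4.23% of member probes). Without it these counts do not show whether the members differed from the array under an alternative. Dye effects called, 2242 over all probes and 5 among members, numbered 1272 to 2153 and 1 to 3 with a replicate left out. Core minus regulatory, 0.04, was 0.17 with treated RNA in Cy3 only and -0.02 in Cy5 only, 0.12 with normexp and median centring (core median 0.22, against 0.06), and -0.0055 to 0.09 with a replicate left out. Leaving aside the mean over a gene's probes, 299 values of 25 named genes under the alternatives were compared. Of these values 28 changed sign, none of them called, and 11 genes never did. These were PSMC3IP at 0.0094 with normexp and loess; with median centring PSMB7 at 0.087, PSMC4 at 0.13, PSMD1 at 0.0028 and PSMC3IP at 0.10; in Cy5 only PSMC4 at 0.068, PSMD1 at 0.042, PSMD2 at 0.14, PSMD4 at -0.0055, PSMB4 at -0.17, PSMA6 at 0.058 and PSMC3IP at 0.14; in Cy3 only PSMC2 at -0.18 and PSMF1 at 0.26; and PSMC4 at 0.019 with the slide block. With a replicate left out the means of PSMC2 ran from -0.14 to 0.12, PSMC6 from -0.091 to 0.42, PSMB4 from -0.068 to 0.14, PSMC4 from -0.60 to 0.45, PSMF1 from -0.044 to 0.039, PSMC3IP from -0.017 to 0.020, PSMB7 from -0.33 to 0.15, PSMC3 from -0.63 to 0.87, PSMC5 from -0.024 to 0.37, PSMD1 from -0.29 to 0.0035, PSMD4 from -0.33 to 0.43 and PSMG3 from -0.18 to 0.79. The mean over a gene's probes, not counted among these, also turned the sign of PSMC3 (-0.05), PSMB4 (-0.10) and PSMF1 (0.04). The turn of PSMF1 came only from the probe that passed the filter through the RNA in which it is higher. The other PSMF1 probes had means of -0.08 to -0.0063. With 3 replicates the intervals of single genes are wide. The array of replicate 1 with treated RNA in Cy3 stood apart in its background correction: over all kept probes its deposited and normexp ratios correlated at 0.83, against 0.995 to 0.999 on the others, and there normexp moved PSMC3 from -0.99 to -0.58 and the dim second PSMA7 probe from 0.85 to 0.06.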
